A study of Mus musculus with 6 samples.

Results

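The genes described here copy the genome in S phase and supply the deoxynucleotides for it. They are 39 genes chosen by name for their function, when earlier results of these data were known. They cover the replicative helicase, the proteins that load and fire origins, the primase and polymerases, and the sliding clamp and its loader. The others serve Okazaki fragment joining and deoxynucleotide synthesis, or are cyclin E with E2F1 and the chromatin assembly factor. Probes of 38 of the 39 were found on the array through RefSeq names, and no probe mapped to Rrm2. All 38 passed the background filter and were tested among 19868 features. Each had signal well above background in all 6 lungs, so none entered through one group alone.

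Whole lungs were taken from mouse embryos at E18.5, the last day or so before birth. The study asked how gene expression in the fetal lung differs when Dppa2 (ECAT15-2), a gene of pluripotent cells and early embryos, is missing. Wild type embryos (n = 3) had the genotype 15-1+/+, 15-2+/+. Knockout embryos (n = 3) had the genotype 15-1Flox/Flox, 15-2-/-. The floxed allele of ECAT15-1 (Dppa4) was thus present in every knockout embryo and in no wild type embryo, and its part cannot be told apart from that of the null allele. The parents were 15-1+/Flox, 15-2+/-. The mixed background holds 129Sv, from the targeted stem cells, repeated C57/BL6 matings, and a cross to transgenic animals with Cre or FLPe, for which no strain is known. Each array held RNA of 1 whole lung, and the labels give neither sex nor litter.

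Replication begins when the origin recognition complex, Cdc6 and Cdt1 load the MCM2-7 ring onto DNA, and Cdc45 and the GINS complex then turn that ring into a moving helicase. Primase and polymerase alpha lay down primers, polymerases epsilon and delta extend them on a clamp of PCNA, and flap cutting and ligation join the lagging strand. Many of these genes are textbook targets of E2F transcription factors, which cyclin E and its kinase help release from the retinoblastoma protein, so their RNA is highest in cycling cells. In a whole lung, a different share of cycling cells and a different amount of RNA per cycling cell cannot be told apart.

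Levels are log2 intensities after subtracting the array's 75th percentile, which is the level 0. Differences are the knockout mean minus the wild type mean of these log2 levels. They were tested with limma, and a gene was called changed at an adjusted p under 0.05. Levels of different probes are not compared, since probes differ in their response. Between 63.3% and 68.8% of probes per array lay well above background. Dppa2 itself stood at -3.25, -3.52 and -3.57 in wild types 1, 2 and 3 and at -4.94, -4.98 and -4.08 in knockouts 1, 2 and 3. The groups did not overlap, but the difference of -1.22 missed the threshold (adjusted p = 0.0604), and the sources used here do not place the probe inside or outside the deletion. The Dppa4 probe was above background in 0 of the 6 lungs. All 12 lung epithelial markers passed the filter. Probes for Uty, Kdm5d, Eif2s3y and Ddx3y, on the Y chromosome, lay above background in wild types 1 and 2 and in no other lung. Xist, the RNA that coats an inactive X chromosome, stood at -8.80 and -8.63 in wild types 1 and 2 and at 2.56, 3.03, 3.13 and 2.75 in wild type 3 and knockouts 1, 2 and 3. Wild types 1 and 2 also shared slide 1 with knockout 3, wild type 3 was on slide 2, and knockouts 1 and 2 were on slide 3. Values that allow for the Y-linked signal and the slide are given with the comparison.

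Some of the promoters of these genes carry a sequence feature that the choice by function did not use. RefSeq windows on GRCm38.p6, each of 300 bases (250 before and 50 after the start of transcription), were found for 31 of the 39 members, 35 windows in all. The letters searched on both strands were the E2F forms TTTCGCGC, TTTGGCGC and TTCCCGCC. At least one of them stood in the windows of 15 of the 31 members, which is 42.9% of member windows against 2.96% of all 32851 windows. The 15 were Cdt1, Chaf1a, Lig1, Mcm3, Mcm5, Mcm6, Mcm7, Orc1, Pola1, Pold1, Pole2, Prim1, Rfc3, Rfc4 and Rrm1. A set of 29 windows of mitosis genes held an E2F form in 3.45%. The reverse held for the CHR forms TTTGAA and TTCGAA, a promoter element known from genes of the G2 and M phases, which stood in 14.3% of member windows, 75.9% of mitosis windows and 19.2% of all windows. CCAAT stood in 51.4% of member windows, 75.9% of mitosis windows and 37.4% of all windows. These shares are a description, and a match is not evidence of binding.

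The 250 bases before the start are shown for 5 members, with E2F forms in capitals. Mcm6 is shown because its window holds 3 matches, of which TTTGGCGC and TTTCGCGC (opposite strand) overlap, beginning 110 and 106 bases before the start, and another TTTGGCGC begins 47 bases before it. Pola1 and Prim1 had the largest differences among members with a match. Pola1 has TTTGGCGC on the opposite strand 138 bases before the start, and Prim1 has TTCCCGCC 15 bases before it. Mcm10 and Cdc45 had the largest differences among members whose window holds none of these letters. The windows are chr1:128359706-128359955 for Mcm6, chrX:93632156-93632405 for Pola1, chr2:5012792-5013041 for Mcm10 and chr16:18811973-18812222 for Cdc45, all on the minus strand, and chr10:128014965-128015214 on the plus strand for Prim1.
Mcm6: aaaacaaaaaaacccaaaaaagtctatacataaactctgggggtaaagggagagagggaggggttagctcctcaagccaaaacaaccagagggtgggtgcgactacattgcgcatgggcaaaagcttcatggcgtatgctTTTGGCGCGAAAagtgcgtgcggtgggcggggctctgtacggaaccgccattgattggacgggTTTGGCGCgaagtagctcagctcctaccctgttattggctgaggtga
Pola1: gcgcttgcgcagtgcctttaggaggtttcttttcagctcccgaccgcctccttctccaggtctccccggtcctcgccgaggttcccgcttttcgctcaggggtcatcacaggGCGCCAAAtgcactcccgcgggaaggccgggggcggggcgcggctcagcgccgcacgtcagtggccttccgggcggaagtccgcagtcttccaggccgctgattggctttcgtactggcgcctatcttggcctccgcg
Prim1: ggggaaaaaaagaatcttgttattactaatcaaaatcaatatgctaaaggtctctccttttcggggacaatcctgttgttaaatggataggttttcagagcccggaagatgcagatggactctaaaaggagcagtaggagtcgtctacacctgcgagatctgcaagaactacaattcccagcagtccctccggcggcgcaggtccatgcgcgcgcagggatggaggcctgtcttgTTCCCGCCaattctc
Mcm10: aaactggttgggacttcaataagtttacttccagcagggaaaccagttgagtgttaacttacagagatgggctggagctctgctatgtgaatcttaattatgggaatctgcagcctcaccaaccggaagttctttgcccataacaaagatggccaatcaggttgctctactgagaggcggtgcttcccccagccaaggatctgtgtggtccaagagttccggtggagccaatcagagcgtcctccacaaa
Cdc45: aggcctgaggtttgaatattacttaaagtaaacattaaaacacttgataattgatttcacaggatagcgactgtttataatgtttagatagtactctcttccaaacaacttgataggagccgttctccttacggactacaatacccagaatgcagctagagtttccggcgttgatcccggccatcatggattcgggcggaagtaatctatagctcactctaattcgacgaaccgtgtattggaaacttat
The 15 tested members with an E2F form had a median difference of 0.27 (-0.05 to 0.56), and the 15 tested members with a window but no such form had a median of 0.23 (-0.11 to 0.74). These medians are a description, with no test.

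No replication gene passed the threshold between knockout and wild type lungs. Of the 38 members, 0 were called in either direction, where limma called 1.34% of all features in either direction and 0.725% as higher in the knockouts. At an unadjusted p under 0.05, 4 members (10.5%) were higher, Ccne2, Cdc45, Pola1 and Pole, and 0 were lower. Of all 19868 features, 5101 had such a p in either direction, and 3061 (15.4%) were higher. The signs were less even than the calls: 34 of 38 members (89.5%) had a positive difference, against 51.1% of all features, and the median was 0.27 against 0.01 for all features. A difference above 0.5 was found for 6 members (15.8%), and for 11.8% of all features. The intervals were wide. The 95% interval excluded a 2-fold difference in either direction for 27 members and reached it for 11, with bounds from -0.53 to 1.60, so for these 11 a change of that size remains within the interval.

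Single lungs stood in a similar order for most members. The lowest 2 of the 6 lungs were wild types 1 and 2 for 25 of 38 members (65.8%), against 20.7% of all features. Knockout 1 was the highest lung for 30 members (78.9%), against 21.9% of all features. Wild type 3 lay above both other wild types for 36 members, by a median of 0.41 over their mean, where the median of all features was 0.02. It also lay above both knockouts 2 and 3 for 24 members. The mean of these knockouts minus wild type 3 had a median of -0.18, against 0.002 for all features. The counts of 36 and 24 were not made over all features, so only the medians have that comparison. The knockout group as a whole lay above the wild type group, without overlap, for 1 member (2.63%), Rfc3, against 17% of all features. The median within-group SD of the members was 0.24 in wild types and 0.32 in knockouts (n = 3 each), compared with 0.15 and 0.17 over all features.

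**Figure D1:**
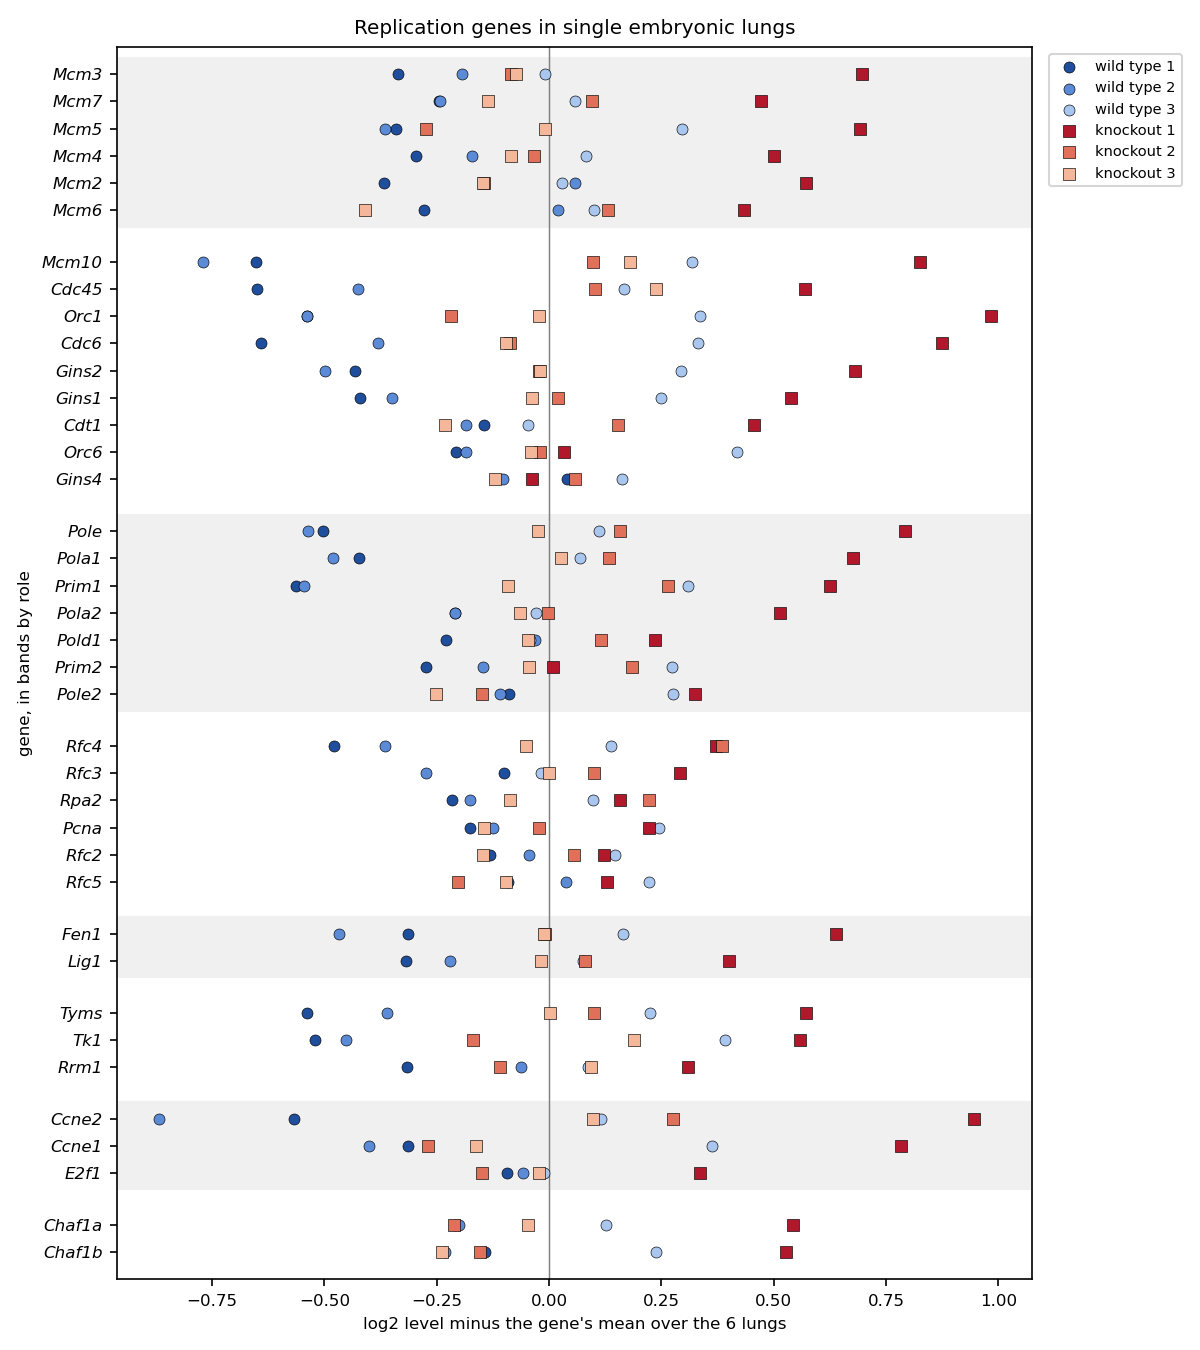
Log2 level of each of the 38 members in each lung, minus the gene's mean over the 6 lungs, with genes in bands by role; circles are the 3 wild types and squares the 3 knockouts. Wild types 1 and 2 lie at the left and knockout 1 at the right for most genes (25 and 30 of 38), while wild type 3 lies among or to the right of knockouts 2 and 3.

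The 6 MCM subunits form the ring of the replicative helicase, and 0 of 6 were called. All 6 differences were positive, between 0.11 and 0.36 (median 0.26). Mcm7 stood at 2.75, 2.75 and 3.05 in wild types 1, 2 and 3 and at 3.47, 3.09 and 2.86 in knockouts 1, 2 and 3. Mcm3 stood at -0.50, -0.36 and -0.18 in the wild types and at 0.53, -0.25 and -0.24 in the knockouts, in the same order. Mcm4 stood at 2.94, 3.07 and 3.32, then 3.74, 3.21 and 3.16. For all 3 genes knockout 1 was the highest lung and knockout 3 lay below wild type 3. The fitted differences were 0.29 ± 0.18 (SE, 3 against 3 lungs) for Mcm7, 0.36 ± 0.23 for Mcm3 and 0.26 ± 0.19 for Mcm4, with limma adjusted p = 0.35, 0.356 and 0.425. Mcm5, Mcm2 and Mcm6 had differences of 0.27, 0.19 and 0.11. Mcm6, whose promoter has the most E2F forms of those shown, stood at 3.24, 3.54 and 3.62 in the wild types and at 3.95, 3.65 and 3.11 in the knockouts. Its lowest lung was knockout 3 and its highest knockout 1, so the knockouts enclosed all wild types.

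Among the 9 genes of origin recognition, licensing and firing, 7 differences were positive, the median was 0.43 and 0 were called. Mcm10, which helps the loaded helicase to fire, stood at -0.59, -0.71 and 0.38 in wild types 1, 2 and 3 and at 0.89, 0.16 and 0.24 in knockouts 1, 2 and 3. Wild type 3 lay above knockouts 2 and 3 and above both other wild types. The difference was 0.74 ± 0.33 (SE; adjusted p = 0.209). Cdc45, the helicase cofactor, stood at -3.01, -2.79 and -2.19 in the wild types and at -1.79, -2.26 and -2.12 in the knockouts. Wild type 3 lay between knockouts 2 and 3, and the difference was 0.61 ± 0.23 (adjusted p = 0.161). Gins2, a subunit of the GINS complex, stood at -1.09, -1.16 and -0.37, then at 0.02, -0.68 and -0.68, with a difference of 0.43 ± 0.28 (adjusted p = 0.367). Wild type 3 lay above knockouts 2 and 3 here too.

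The other origin genes had smaller or less certain differences. Orc1, the subunit of the origin recognition complex whose amount varies over the cell cycle, differed by 0.49 (95% interval -0.37 to 1.36), and Cdc6, which loads the helicase with it, by 0.46 (-0.34 to 1.26). Both ranged over 1.52 log2 units across the 6 lungs, from wild types 1 and 2 at the low end to knockout 1 at the high end. Gins1 differed by 0.35 and Cdt1, the loading factor that is destroyed in S phase, by 0.25. Orc6 and Gins4 had differences of -0.02 and -0.07. Gins4 varied least of all members, over 0.28 log2 units, and Orc6 was highest in wild type 3, at 3.11 against 2.73, 2.67 and 2.65 in knockouts 1, 2 and 3.

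Of the 7 primase and polymerase genes, 6 differences were positive (median 0.30) and 0 were called. Pola1, the catalytic subunit of polymerase alpha, stood at -0.87, -0.92 and -0.38 in wild types 1, 2 and 3 and at 0.23, -0.31 and -0.42 in knockouts 1, 2 and 3. Pole, the catalytic subunit of polymerase epsilon, stood at -0.17, -0.21 and 0.44 in the wild types and at 1.12, 0.49 and 0.31 in the knockouts. Prim1, the catalytic subunit of primase, stood at 0.42, 0.44 and 1.29, then 1.61, 1.25 and 0.89. In each, wild types 1 and 2 were lowest and wild type 3 lay above at least 1 knockout. The differences were 0.56 ± 0.22 (SE; adjusted p = 0.174) for Pola1, 0.62 ± 0.26 (adjusted p = 0.194) for Pole and 0.53 ± 0.28 (adjusted p = 0.28) for Prim1. Of their partner subunits, Pola2 differed by 0.30, Prim2 by 0.10 and Pole2 by -0.05. Pold1, the catalytic subunit of polymerase delta, differed by 0.20.

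The clamp, its loader and the single-strand binding protein showed the smallest differences of the larger roles, with a median of 0.12 over 6 genes, 5 of them positive and 0 called. Pcna, the sliding clamp and a common proliferation marker, stood at 3.47, 3.52 and 3.89 in wild types 1, 2 and 3 and at 3.86, 3.62 and 3.50 in knockouts 1, 2 and 3. Wild type 3 was its highest lung, and the difference was 0.04 (95% interval -0.34 to 0.41). The loader subunit Rfc4 stood at 0.98, 1.09 and 1.59 in the wild types and at 1.83, 1.84 and 1.40 in the knockouts, a difference of 0.47 ± 0.20 (SE; adjusted p = 0.198). Rfc3 stood at -0.84, -1.02 and -0.76, then -0.45, -0.64 and -0.74. Rfc3 was the member whose groups did not overlap, although knockout 3 exceeded wild type 3 by 0.02, and its difference of 0.26 ± 0.13 was not called (adjusted p = 0.242). Rpa2, a subunit of the single-strand binding protein, stood at -0.79, -0.75 and -0.48, then -0.42, -0.35 and -0.66 (difference 0.20, adjusted p = 0.408). Rfc2 and Rfc5 differed by 0.02 and -0.11. The 4 loader subunits thus spanned -0.11 to 0.47.

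Both genes of Okazaki fragment joining had positive differences, and 0 were called. Fen1, the flap nuclease, stood at -0.19, -0.35 and 0.29 in wild types 1, 2 and 3 and at 0.76, 0.11 and 0.11 in knockouts 1, 2 and 3. Lig1, the ligase, stood at 2.31, 2.41 and 2.70, then 3.03, 2.71 and 2.61. Wild type 3 lay above knockout 3 in both. The differences were 0.41 ± 0.24 (SE; adjusted p = 0.313) and 0.31 ± 0.16 (adjusted p = 0.269).

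Of the nucleotide supply genes, 3 were measured, all with positive differences and 0 called. Tyms, the thymidylate synthase, stood at 1.22, 1.40 and 1.98 in wild types 1, 2 and 3 and at 2.33, 1.86 and 1.76 in knockouts 1, 2 and 3. Tk1, the thymidine kinase of cycling cells, stood at 0.48, 0.55 and 1.39, then 1.56, 0.83 and 1.19. Rrm1, the large subunit of ribonucleotide reductase, stood at 1.68, 1.94 and 2.09, then 2.31, 1.89 and 2.09. Wild type 3 was above knockouts 2 and 3 for Tyms and Tk1. The differences were 0.45 ± 0.24 (SE), 0.39 ± 0.29 and 0.20 ± 0.16, with adjusted p = 0.278, 0.429 and 0.465.

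Cyclin E2 had the largest difference of all members. Ccne2 stood at -3.35, -3.65 and -2.67 in wild types 1, 2 and 3 and at -1.84, -2.51 and -2.68 in knockouts 1, 2 and 3. Wild type 3 lay beside knockout 3. The difference was 0.88 ± 0.31 (SE), a 1.84-fold ratio, and was not called (adjusted p = 0.139). Its paralogue Ccne1 stood at -0.42, -0.51 and 0.25, then 0.67, -0.38 and -0.27, a difference of 0.23 ± 0.32 (adjusted p = 0.678). E2f1, one of the activating E2F factors, stood at -1.34, -1.31 and -1.26, then -0.91, -1.40 and -1.27, a difference of 0.11 ± 0.14 (adjusted p = 0.666). For E2f1 the SD of the wild types was 0.04, and only knockout 1 stood above them. The chromatin assembly factor subunits place histones on new DNA. Chaf1a stood at -0.53, -0.52 and -0.19, then 0.23, -0.53 and -0.36, and Chaf1b at 0.59, 0.51 and 0.98, then 1.27, 0.59 and 0.50. Knockout 1 was the highest lung for both, and the differences were 0.19 (adjusted p = 0.608) and 0.09 (adjusted p = 0.832).

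The members were also read with a term for the 2 lungs with Y-linked signal, which leaves wild type 3 against the 3 knockouts. The median member difference was then -0.00, and 19 of 38 members (50%) were positive, where 49.7% of all features were. The interval held 0 for 37 members. The exception was Orc6, at -0.43 (adjusted p = 0.471). Knockout 3 lay above wild type 3 for 3 members (7.89%), against 48.5% of all features. Knockout 2 lay above wild type 3 for 12 members and knockout 1 for 32, counts that were not made over all features. The medians were -0.19 for knockout 3, -0.12 for knockout 2 and 0.35 for knockout 1, each minus wild type 3. Over all features these medians were -0.009, 0.019 and 0.003, in the same order. Within slide 1, which held knockout 3 and wild types 1 and 2, knockout 3 exceeded the mean of those wild types for 31 members. The median was 0.19, against -0.001 for all features. Most members were therefore higher in knockout 3 than in the wild types of its slide and lower in it than in wild type 3.

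**Figure D2:**
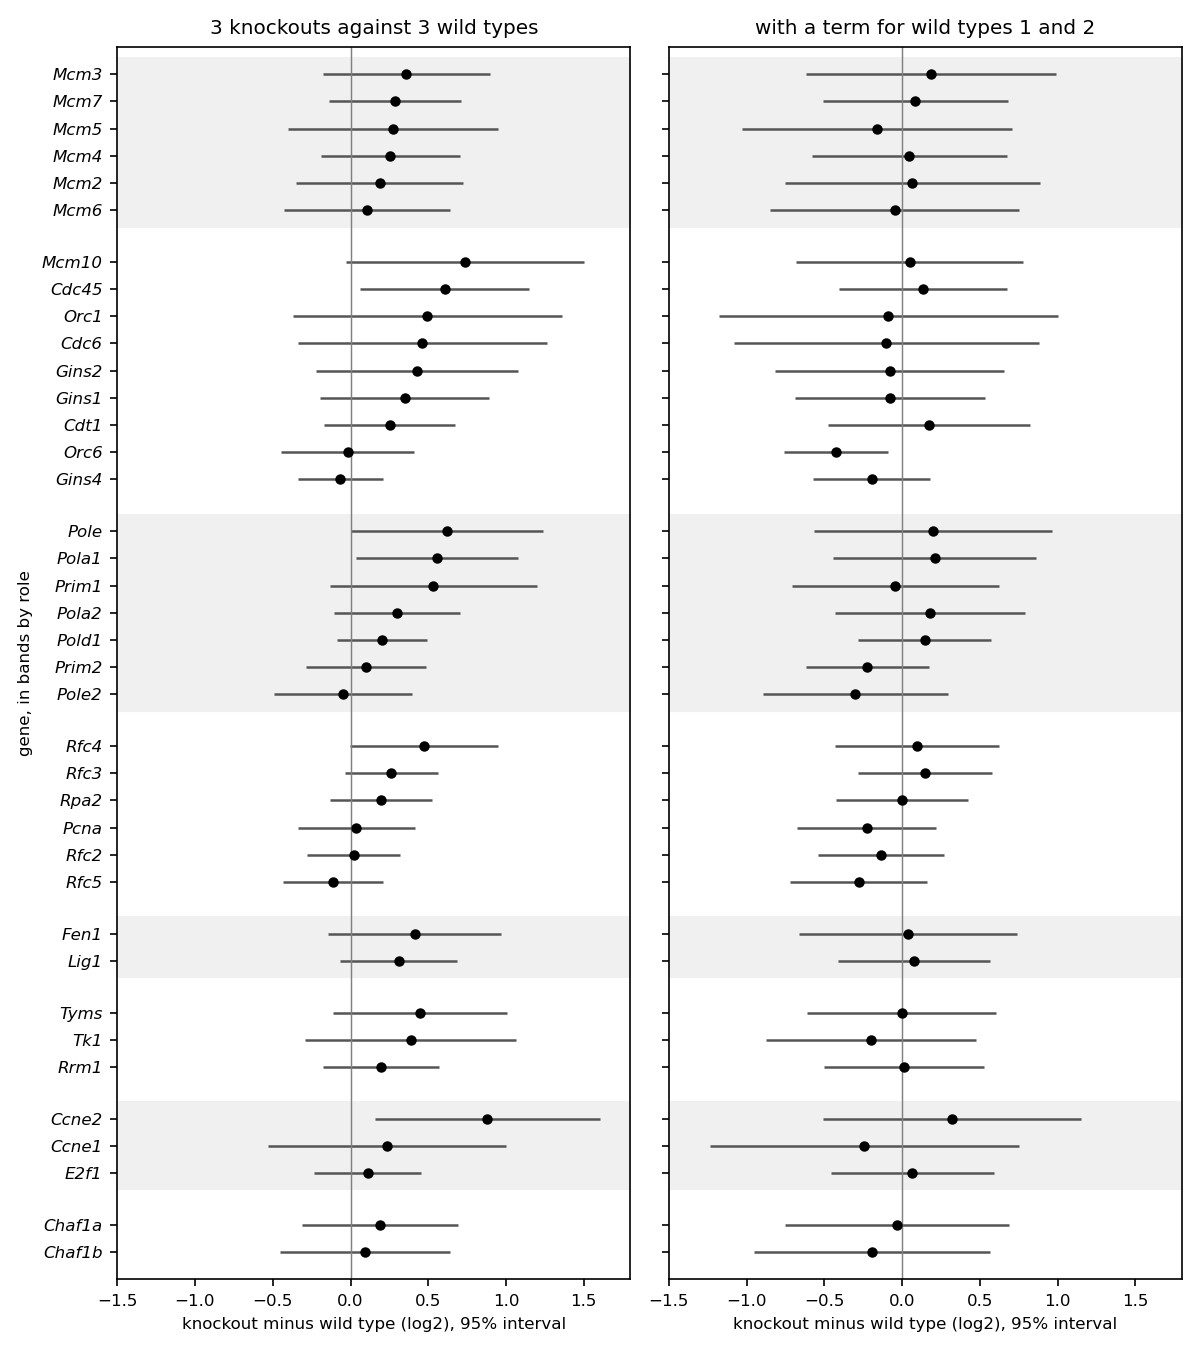
Knockout minus wild type difference of each member (log2) with its 95% interval, from all 6 lungs (left) and when wild types 1 and 2 have a term of their own (right), with genes in bands by role. On the left 34 of 38 points lie to the right of 0; on the right 19 do, and 37 of 38 intervals hold 0.

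Without wild type 3, 3 members passed the threshold, all higher in the knockouts: Ccne2 (1.16, adjusted p = 0.0497), Cdc45 (0.84, adjusted p = 0.0394) and Mcm10 (1.08, adjusted p = 0.0440). These 3 are 7.89% of the members, near the 6.75% of all features called higher without that lung, and the calls over all features went from 267 to 1971. Without knockout 1 the median member difference was 0.12, against 0.01 for all features, and 25 members were positive. A block for the number in the raw file names, which pairs wild type 3 with knockout 3, gave a median of -0.19 and 3 positive members. Background correction by normexp moved the median of all features to 0.16 and that of the members to 0.25, so that the members stood 0.09 above all features rather than 0.26. Scaling to the array median moved all features to -0.12 and the members to 0.13, and left that distance at 0.26.

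**Figure D3:**
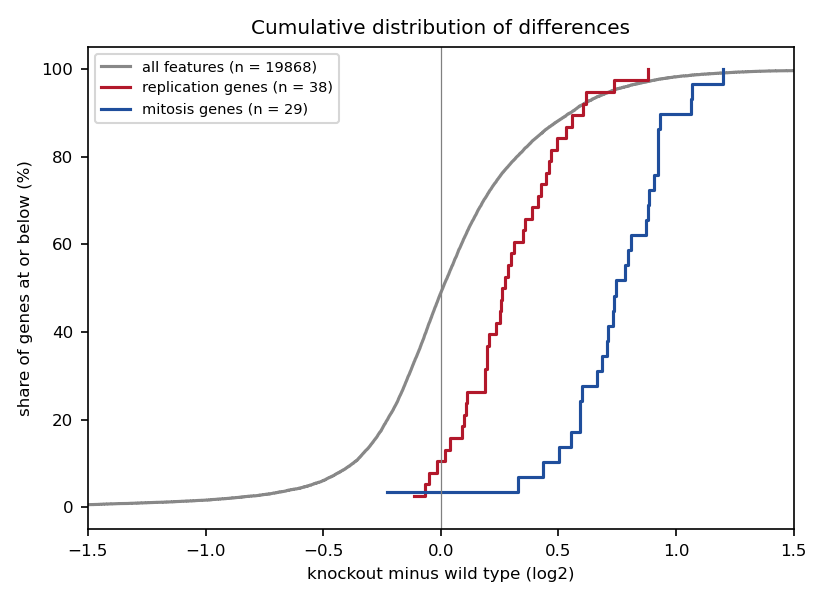
Cumulative share of features (%) at or below each knockout minus wild type difference (log2), for all 19868 features, the 38 members and 29 mitosis genes; features beyond the axis limits are not drawn. The members' curve crosses the middle at 0.27 and that of the mitosis genes at 0.74, while all features cross near 0.

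The related gene lists divided by process. Of 33 other replication fork and origin genes, 27 had positive differences (median 0.25) and 0 were called (8 higher at an unadjusted p under 0.05); the sign of the median turned with the term for wild types 1 and 2 (-0.03). The closest to the threshold were Cdc7, the kinase that fires origins, at 1.11 (adjusted p = 0.0666), and Ticrr, an origin firing factor, at 1.00 (adjusted p = 0.0808). Of 11 genes for the chromatin of new DNA, 9 were positive (median 0.16, or -0.03 with the term for wild types 1 and 2) and 0 were called (2 higher at an unadjusted p under 0.05), with Hmgb2 at 0.62 (adjusted p = 0.0721) and Hells, a chromatin remodeller, at 0.61 (adjusted p = 0.112). Of 22 E2F, cyclin and CDK genes, 14 were positive and 0 were called (4 higher and 1 lower at an unadjusted p under 0.05); the median of 0.12 was -0.01 with scaling to the array median. Cdk2, the kinase partner of cyclin E, differed by 0.59 (adjusted p = 0.115) and Ccnd3, a D-type cyclin, by -0.40 (adjusted p = 0.111).

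Other nucleotide synthesis genes did not have the sign pattern of the members. Of 30 measured, 14 had positive differences, the median was -0.07 and 0 were called (1 higher and 1 lower at an unadjusted p under 0.05). Dctd, a deaminase on the route to thymidylate, differed by 0.44 (adjusted p = 0.103) and Prps2, which makes the ribose precursor of nucleotides, by -0.41 (adjusted p = 0.185). For 0 of these 30 genes were wild types 1 and 2 the lowest lungs. Of 14 CDK inhibitors and growth arrest genes, 5 were positive (median -0.18) and 0 were called (1 higher and 4 lower at an unadjusted p under 0.05), with Gadd45a, a stress-induced arrest gene, at -0.50 (adjusted p = 0.119) and Ccng1 at -0.33 (adjusted p = 0.122).

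The mitosis genes ordered the lungs much like the replication genes, with wild types 1 and 2 further below the other lungs and the knockouts closer together. Of 29 measured, 28 differences were positive (median 0.74) and 0 were called (18 higher at an unadjusted p under 0.05), with Kif2c, a microtubule-depolymerising kinesin, at 1.06 (adjusted p = 0.0945) and Ndc80, a kinetochore subunit, at 1.07 (adjusted p = 0.111). For 28 of them wild types 1 and 2 were the lowest lungs. With the term for these lungs the median was 0.04. The mean deviation from the gene mean over the mitosis list was -0.70, -0.72 and 0.32 in wild types 1, 2 and 3 and 0.54, 0.29 and 0.27 in knockouts 1, 2 and 3. The same mean over the replication members was -0.32, -0.28 and 0.17, then 0.48, 0.01 and -0.06. The 2 lists were not tested against each other.

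**Figure D4:**
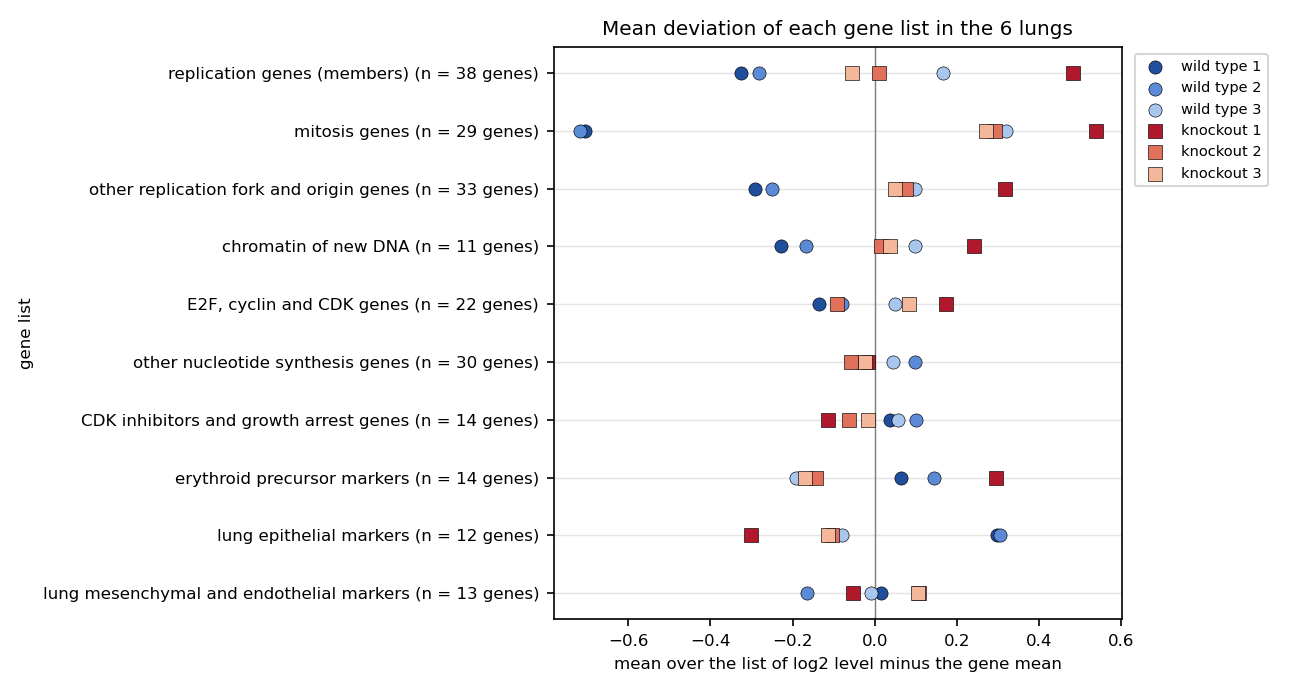
Mean over each gene list of the log2 level minus the gene's mean over the 6 lungs; circles are wild types and squares knockouts. Wild types 1 and 2 are lowest on the replication (-0.32, -0.28) and mitosis lists (-0.70, -0.72), and knockout 1 is highest on both (0.48, 0.54); other nucleotide synthesis genes lie close to 0 in every lung.

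Markers of cell types that cycle in a fetal body were read beside these values. Of 16 erythroid precursor markers, 14 were tested and 0 were called (1 higher and 2 lower at an unadjusted p under 0.05). Their median of -0.07 had no stable sign: it was 0.49 with normexp and 0.16 with the term for wild types 1 and 2. Their summed level was 87.5% to 106.7% of its mean over the 6 lungs in wild types and 97.9% to 107.1% in knockouts. That linear sum comes mostly from the globin probes Hbb-bt and Hba-a1 (wild type means 7.76 and 7.60), so it hardly reflects the other markers. Sptb, a red cell membrane spectrin, differed by 1.75 (adjusted p = 0.0813) and Epb42, another red cell membrane protein above background in 1 of 3 knockouts, by -0.98 (adjusted p = 0.121). The mean deviation of the erythroid list was 0.06, 0.14 and -0.19 in wild types 1, 2 and 3. In knockouts 1, 2 and 3 it was 0.29, -0.14 and -0.17. Both the erythroid and the replication list were highest in knockout 1, but the erythroid list was lowest in wild type 3 and the replication list in wild type 1. Thymocyte and lymphoid markers passed the filter for 6 of 15 (0 called, 3 lower at an unadjusted p under 0.05; median -0.25, or 0.61 with normexp), with Cd3d, a T cell receptor chain partner above background in 2 of 3 knockouts, at -0.89 (adjusted p = 0.138). Rag1, Rag2, Cd4 and Cd8a were above background in 0 of 6 lungs. Liver markers passed for 2 of 9, Alb (-0.29, adjusted p = 0.444) and Afp (-0.02, adjusted p = 0.977), and neither had an unadjusted p under 0.05. The liver median of -0.15 was 0.77 with normexp.

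Some markers of other cells did change. Of 10 neutrophil and mast cell markers tested, 2 fell, S100a8, a neutrophil calgranulin, by 0.98 (adjusted p = 0.0375) and the mast cell chymase gene Mcpt4. The latter was well above background in 3 of 3 wild types and 0 of 3 knockouts, so only a bound holds. Mcpt4 was at least 1.81-fold lower in the knockouts, taking the lowest level well above background on each array for the dim lungs. The call (limma adjusted p = 0.0499) used the measured levels, which in the knockouts were not well above background. The bound itself was not tested. The summed linear level of the 10 markers was 103% to 158% of the mean in wild types and 63.0% to 81.2% in knockouts. That sum comes mostly from S100a9, which was not called (difference -0.89, adjusted p = 0.0666). Of 10 heart muscle markers 5 fell, Nkx2-5, Myl4, Myl7, Tnni3 and Tnnt2, with Nkx2-5, a cardiac transcription factor, at -1.73 (adjusted p = 0.00303) and Myl4, an atrial myosin light chain, at -1.72 (adjusted p = 0.00442). The heart list was lower in all 3 knockouts than in all 3 wild types, unlike the replication genes, which divided the wild types among themselves. With normexp the heart median went from -1.43 to -0.63 and the neutrophil and mast cell median from -0.89 to -0.14. Under that setting 0 features were called. Of 12 lung epithelial markers 0 were called (1 higher and 3 lower at an unadjusted p under 0.05; median -0.24), with Scgb1a1, the club cell secretory protein, at -1.73 (adjusted p = 0.0734) and Aqp5, a water channel of alveolar cells, at -1.10 (adjusted p = 0.0823). Their mean deviation was 0.30, 0.30 and -0.08 in wild types 1, 2 and 3 and -0.30, -0.10 and -0.11 in knockouts 1, 2 and 3, so wild types 1 and 2 were high and knockout 1 low, the reverse of the replication genes. Of 13 lung mesenchymal and endothelial markers 0 were called (2 higher at an unadjusted p under 0.05); the median of 0.12 was -0.01 with scaling to the array median and -0.03 with normexp. Pecam1 and Tek, both endothelial, differed by 0.57 (adjusted p = 0.121) and 0.36 (adjusted p = 0.193). Cdh5 and Kdr, the other endothelial markers of this list, differed by -0.20 (adjusted p = 0.471) and 0.06 (adjusted p = 0.840). The part of any of these cell types in the replication values was not tested.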

How the data were processed

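RNA of 6 lungs was hybridised to 1-colour Agilent arrays, 1 per lung. The deposited scanner files hold a background-subtracted, detrended intensity per spot from Agilent Feature Extraction 10.7.3.1, per the file headers. No spot was saturated; outlier spots (77 to 110 per array of 43379) and control spots were left out. The authors' deposited log2 values, used as an alternative, matched quantile-normalized log2 intensities set relative to the wild type median for each probe; their column medians were 0 for the wild types and 0.0108, -0.00698 and -0.000844 for knockouts 1, 2 and 3, and the scaling method is not given in the sources used here.

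From the intensities, log2 values minus the array's 75th percentile were computed, and spots of a probe averaged. A probe was kept if every array of either group had it well above background, which left 26669 of 41174. Each gene took its probe of highest mean, which gave 19868 features; 26690 probes (64.8%) matched a RefSeq symbol through the GRCm38.p6 table. The 38 members had 46 probes; in 8 members with 2 probes the signs were the same and the differences lay within 0.19. The comparison used lmFit and eBayes of limma 3.58.1 under R 4.3.3 (two-sided, Benjamini-Hochberg over all features, threshold 0.05). The fit was tested on simulated data. The p-values measure the spread between the lungs of a group, and 3 arrays per group limit the precision. That spread takes in slide and, in the wild types, Y-linked signal.

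The members and lists were chosen with earlier results of these data known. All members are named. Values of every lung are given in each role for up to 3 members of smallest p. From other lists the called genes and the 2 of smallest p are named. Hbb-bt, Hba-a1 and S100a9 are named because they make up most of a summed level. Cdh5 and Kdr are named as the other endothelial markers of their list. One marker that this rule names is not reported here. Mcm6, Pcna and Orc6 were given lung by lung after their values were seen. Alternatives were other scaling, background correction, filters and probe choice, blocks for slide, file name number and replicate number, a term for the arrays with Y-linked signal, and leaving out arrays. Normexp used the median spot signal. Sequences are RefSeq's.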

Additional observations from a re-analysis of the deposited data

How the results depend on the processing

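The alternatives were rerun for the count of changed features, the members and each list. Members called stayed at 0 in every alternative except without wild type 3, so leaving out single lungs gave 0 to 3. Features called were 267, and 34 to 1971 when each lung was left out in turn. They were 28 without a background filter, 24 with slide as a block, 5 with a block for the file name number, 26 using a term for the arrays with Y-linked signal, and 0 by limma with normexp (1516 at an unadjusted p under 0.05). Without wild types 1 and 2, an alternative chosen after seeing the data, 0 were called (1378 at an unadjusted p under 0.05). Calls divided into 144 higher and 123 lower, against 59 and 138 with quantile normalization, 60 and 137 with the authors' values and 88 and 230 with scaling to the array median. The replicate numbers did not pair the lungs (correlations of same-numbered deviations -0.02, 0.04 and 0.03); with a replicate block 55 features and 0 members were called.

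Positive members numbered 3 with that file name block, 19 with the Y-linked term and 19 without wild types 1 and 2, and 25 to 36 when single lungs were left out. The median member difference was -0.19 with the file name number, -0.00 with the Y-linked term and without wild types 1 and 2, and 0.12 to 0.38 when single lungs were left out. Medians of 8 lists changed sign: other replication genes (-0.0775 file name number, -0.0284 Y-linked term and without wild types 1 and 2), chromatin of new DNA (-0.107, -0.0308 and -0.0308 in the same order), mitosis genes (-0.0466 file name number), E2F, cyclin and CDK genes (-0.0123 array median, -0.0323 file name number), mesenchymal and endothelial markers (-0.0129 array median, -0.0314 normexp), thymocyte markers (0.61 normexp), erythroid markers (0.494 normexp, 0.0476 file name number, 0.156 Y-linked term and without wild types 1 and 2, and up to 0.0749 when wild type 1 or 2 or knockout 2 or 3 was left out) and liver markers (0.769 normexp, 0.0452 without a filter, 0.0631 Y-linked term and without wild types 1 and 2, and 0.0903 without knockout 3). The cause was not tested. Slide, file name number and Y-linked signal overlap in these 6 arrays and cannot be told apart from one another.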
